A study of Drosophila melanogaster with 10 samples.

Results

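The genes described here are 77 Drosophila melanogaster genes that carry only a CG number on the array platform and whose transcripts were lower after loss of Tip60. They were selected on their measured signals: a probe set entered if its platform annotation gave a single symbol of CG and digits, its mean log2 signal was lower by at least 0.6 on 6 Tip60 RNAi arrays than on 4 eGFP RNAi arrays, all 6 arrays lay below all 4, and its mean eGFP signal was at least 200. The rule took 77 probe sets of 77 genes, out of 2005 CG-numbered probe sets with that eGFP signal, 5667 CG-numbered probe sets in all and 18952 probe sets on the array. A CG number is the default symbol of a gene predicted from the fly genome sequence. It is replaced when a gene receives a proper name, so CG-numbered genes are mostly those studied least. Of the 77, 76 were found in the gene table of RefSeq (assembly Release 6 plus ISO1 MT), and all 76 still have the CG number as their symbol there; CG32582 had no match.

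SL2 is a cell line established from fly embryos, with features of hemocytes, the blood cells of the fly. Cells at 26 °C received 10 µg of double-stranded RNA (dsRNA), and total RNA was taken after 5 days. The Tip60 RNAi arrays used 3 dsRNAs on 2 arrays each, named by the Tip60 positions in the labels: 1321-1618, 190-807 and 603-1116. The last of these overlaps dsRNA 190-807 by 205 nucleotides. The 4 control arrays came from cells mock-treated with dsRNA against eGFP, a jellyfish-derived fluorescent protein that the fly genome does not encode. All 10 arrays come from this single line, and whether arrays within a group stem from separate cultures is not stated, so the spread between them may be technical in part.

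Tip60 is a histone acetyltransferase. In flies it works within a large complex that acetylates histones H4 and H2A and exchanges the H2A variant in nucleosomes, and it is known from work in flies and mammals for roles in transcription and DNA repair. The Tip60 signal was 287 and 276 with dsRNA 1321-1618, 209 and 399.6 with dsRNA 190-807, and 382 and 292 with dsRNA 603-1116, against 1339, 1315, 1163 and 1138 on the eGFP arrays. The highest Tip60 RNAi array lay far below the lowest eGFP array, and the mean log2 difference was −2.04.

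All deposited signals share a trimmed mean of 1000 per array, so each difference below is relative to the bulk of an array's signal. The median fly probe set lay between 78.6 and 110.1 on the Tip60 RNAi arrays and between 55.6 and 72.1 on the eGFP arrays. The poly-A spike-ins were higher by 0.75 and the hybridization spike-ins by 0.55 (mean log2 difference, Tip60 minus eGFP). Scaling the arrays to either set lowers every difference by that amount, and the results under both scalings are given below. The cause of the spike-in shift was not tested. All 12 listed hemocyte markers had a mean eGFP signal of at least 200 (lowest 2416), as did 3 of 3 crystal cell, 2 of 3 neuron and 1 of 4 epithelium markers, against 0 of 1 for muscle, 0 of 3 for fat body and 0 of 3 for germ line. The mean level of all 12 hemocyte markers was higher after Tip60 RNAi, by 0.24 (Pvr) to 2.46 (NimC1, 13362 after Tip60 RNAi and 2416 after eGFP RNAi) on the log2 scale. Their median was 16792 after Tip60 RNAi and 13152 after eGFP RNAi, and the part of this shift in the members' falls was not tested. The median log2 difference of all named probe sets with an eGFP signal of at least 200 was −0.04. After scaling to the poly-A spike-ins only NimC1, Sr-CI (1.20 as deposited) and Pxn (1.10) would remain higher. Among the crystal cell markers PPO1 was lower (−0.38), while lz (0.39) and PPO2 (0.22) were higher. Replicate 1 of dsRNA 190-807 stood apart on the second principal component (57.0, against −15.7 to 3.55 on the other arrays). Fewer cells that carry a transcript and less of it per cell cannot be told apart in such bulk RNA.

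As a whole the 77 transcripts were lower by a median of 0.73 on the log2 scale, which is 60.4% of their eGFP level. The mean signal of a member had a median of 909 after Tip60 RNAi and 1587 after eGFP RNAi. Per gene the transcript left ranged between 31.0% and 65.8%. In 12 genes the fall was at least 2-fold (a log2 difference of at most −1), in 35 it lay between that and −0.7, and in 30 it was smaller still. The same rule took 219 of all 6421 single-gene probe sets with an eGFP signal of at least 200 (3.41%), and the mirrored rule for rises took 328 (5.11%). By class it took 77 of 2005 CG-numbered probe sets (3.84%) and 142 of 4416 with a proper gene name (3.22%). Rises by the mirrored rule numbered 108 (5.39%) among CG-numbered and 220 (4.98%) among named probe sets. The median log2 differences of those that fell were −0.73 and −0.71; the difference between the classes was not tested. The number that the rule takes depends on the scaling: with arrays scaled to the poly-A spike-ins it was 1359, to the hybridization spike-ins 698 and to the array median 794. Which direction is the more common turns with it. As deposited, CG-numbered falls and rises numbered 77 and 108 and named ones 142 and 220. With poly-A scaling they were 1359 and 21 for CG-numbered and 2979 and 27 for named probe sets, with the hybridization spike-ins 698 and 22, and 1595 and 26, and with the array median 794 and 33, and 1724 and 51. Quantile normalization gave 97 and 98, and 167 and 214, and cyclic loess 92 and 94, and 165 and 208.

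**Figure D1:**
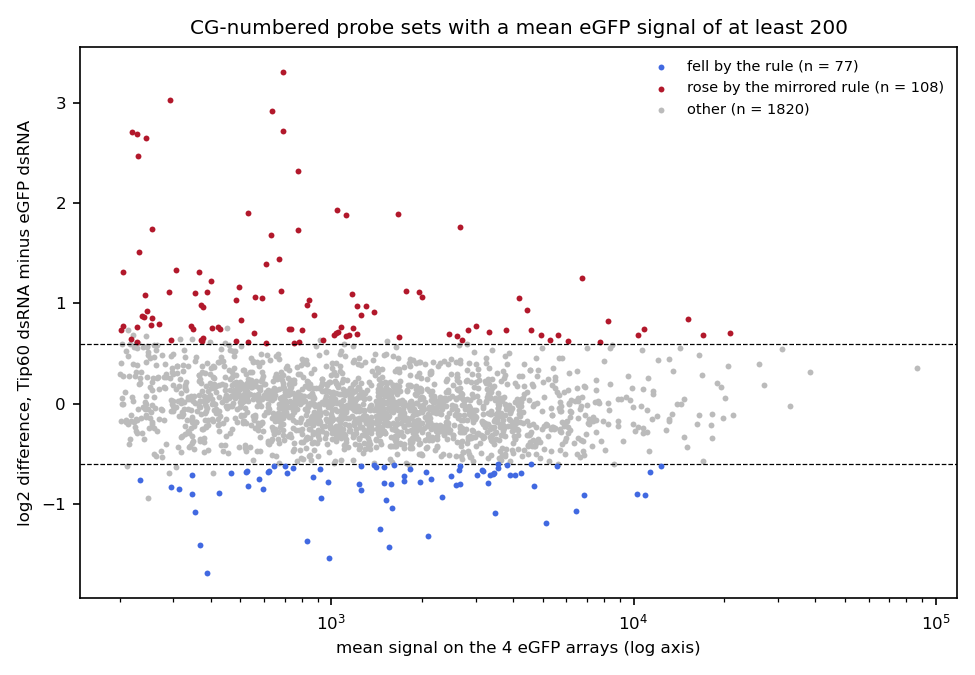
Mean signal on the 4 eGFP arrays (x, log axis) against the log2 difference, Tip60 minus eGFP dsRNA (y), for 2005 CG-numbered probe sets with an eGFP signal of at least 200. The 77 that fell (blue) reach down to −1.69 (CG12910, a dim member), while the brightest, CG6180, is at −0.62, and the 108 that rose by the mirrored rule (red) reach 3.31; dashed lines mark −0.6 and 0.6.

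In the limma fit of 6 Tip60 against 4 eGFP arrays across 11261 probe sets, all 77 were called lower at an adjusted p under 0.05, where 16.7% of all probe sets were called lower and 17.8% higher. That contrast chose the members, so the count describes the choice. The rule likewise puts every member below its eGFP arrays on each of the 6 Tip60 RNAi arrays, so wherever the groups of a member are said not to overlap this is the rule's own demand. The median member stood at −0.77 and −0.74 with dsRNA 1321-1618, at −0.76 and −0.75 with dsRNA 190-807, and at −0.77 and −0.77 with dsRNA 603-1116 (log2 signal minus the eGFP mean). On the eGFP arrays it was −0.01, −0.05, 0.02 and 0.03 in the order of replicates 2-1, 2-2, 3-1 and 3-2. The rule used these same arrays, so nothing is read from how even the medians are.

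**Figure D2:**
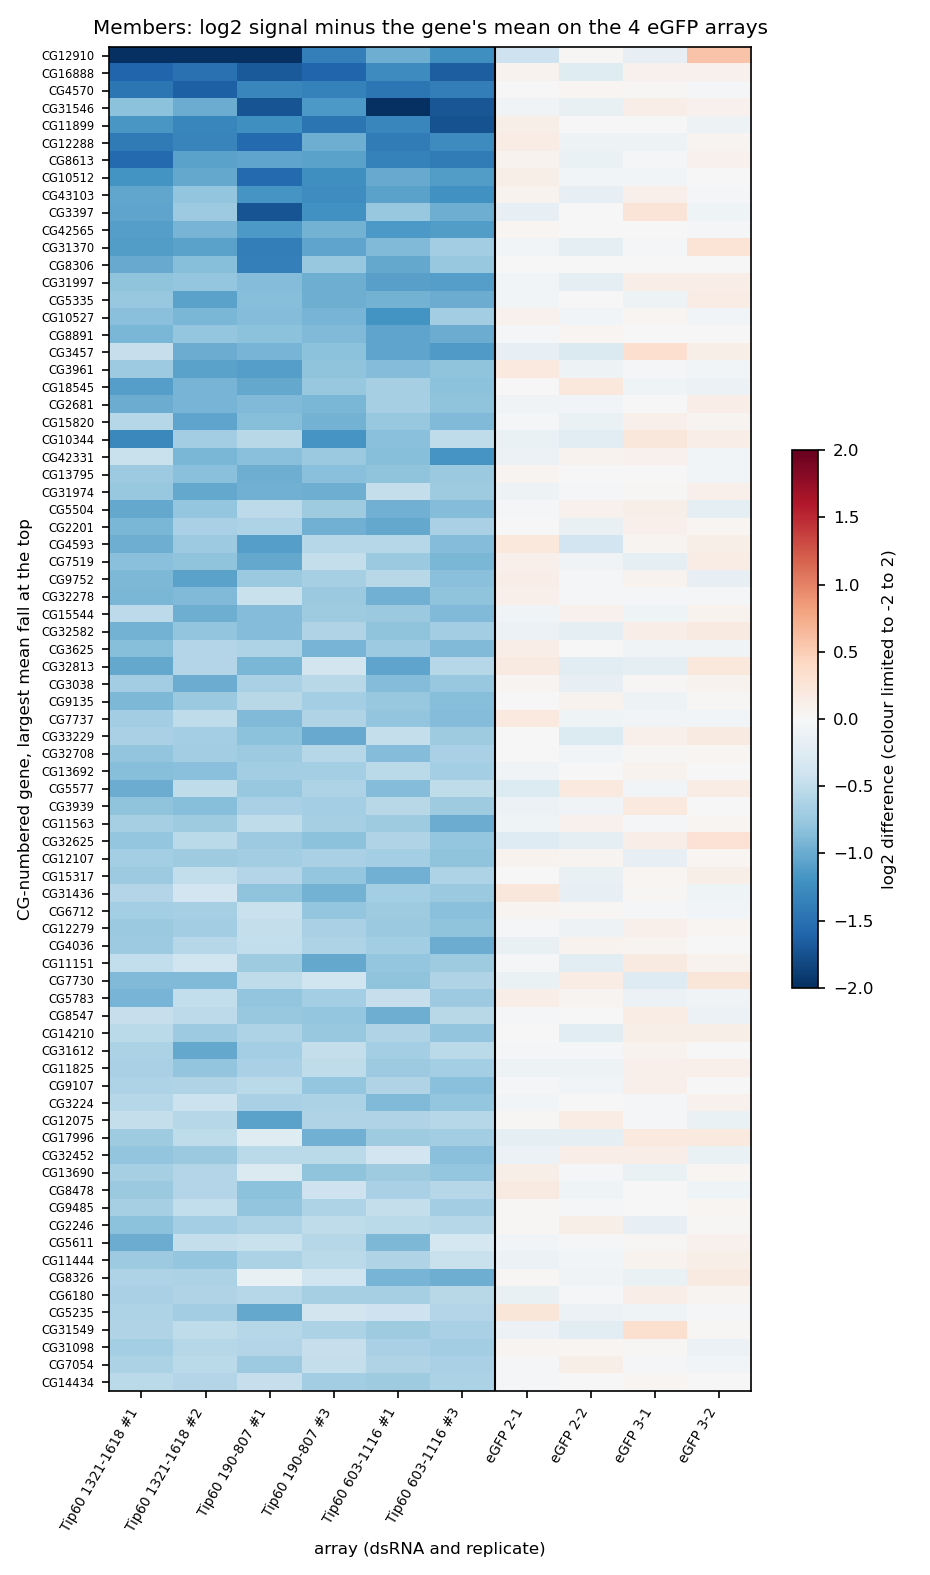
Log2 signal of the 77 members (rows, largest mean fall at the top) on the 6 Tip60 RNAi arrays (left of the line) and the 4 eGFP arrays (right), each minus the gene's mean on the eGFP arrays. By the rule all cells on the left are below 0 (array medians −0.77 to −0.74), while eGFP array medians lie between −0.05 and 0.03.

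CG12910, a gene with no role given here, fell most. Its signal was 92.5 and 90.8 with dsRNA 1321-1618, 65.9 and 144.4 with dsRNA 190-807, and 189 and 159 with dsRNA 603-1116, against 279, 379.8, 332 and 553 on the eGFP arrays. The groups do not overlap, but the arrays of this gene spread more than those of any other member (SD of log2 signal within groups 0.45, against a median of 0.15 over members). Its mean log2 difference was −1.69, and the 65.9 is the lowest signal of any member on any array.

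CG16888 had signals between 305 and 409 (median 325) on the Tip60 RNAi arrays, against 1021, 829, 1043 and 1034 on the eGFP arrays, a log2 difference of −1.54. CG4570 lay between 499 and 629 (median 582) with Tip60 dsRNA, against 1545, 1597, 1575 and 1507 with eGFP dsRNA, a difference of −1.43. The eGFP arrays of CG4570 differed by less than the gap to the highest Tip60 RNAi array, and the same holds for CG16888. No role is given here for either gene.

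Other members among the 12 that fell most have no role given here either. CG8613 averaged 616 ± 88.7 (SD, n = 6) after Tip60 RNAi and 1454 ± 101 (n = 4) after eGFP RNAi, a log2 difference of −1.25. CG43103 averaged 1638 ± 202 after Tip60 RNAi and 3473 ± 279 after eGFP RNAi (−1.09). CG42565 averaged 3095 ± 222 after Tip60 RNAi and 6467 ± 124 after eGFP RNAi (−1.07), which makes it the brightest of the 12. In all 3 genes the highest Tip60 RNAi array lay well below the lowest eGFP array. CG11444, also without a role here, was another of the brightest members, at 3632 ± 299.8 after Tip60 RNAi and 5579 ± 420.5 after eGFP RNAi (−0.62).

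**Figure D3:**
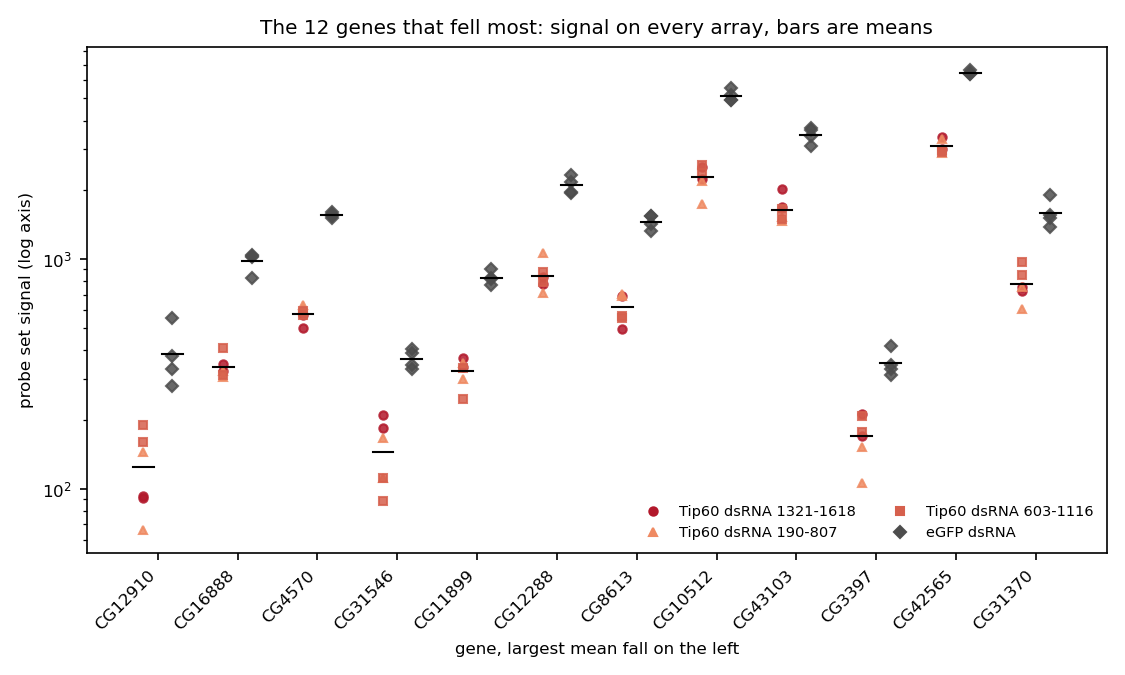
Signals (log axis) of the 12 members that fell most, on the 6 Tip60 RNAi arrays (left of each pair, symbols by dsRNA) and the 4 eGFP arrays (right, diamonds), with bars for group means. The rule keeps the groups apart in each gene, from CG12910 (−1.69) to CG31370 (−1.03).

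Roles could be given to 32 of the 77 genes, from synonyms in the RefSeq table or from well established protein families, and 45 have none here. These groups were formed with the values known and are descriptions without a test. Redox enzymes, which pass electrons between substrates and cofactors, made up the largest of them, with 8 genes and a median log2 difference of −0.78.

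CG31546, a short-chain dehydrogenase, fell most in this group. Its signal was 209 and 184 with dsRNA 1321-1618, 111 and 166 with dsRNA 190-807, and 88.2 and 112 with dsRNA 603-1116, against 347, 331, 404 and 388 on the eGFP arrays. Every Tip60 RNAi array lay below every eGFP array, and the mean log2 difference was −1.41. CG10512, of a family of malate and lactate dehydrogenases, was a brighter gene. It gave 2235, 2516, 1742, 2190, 2564 and 2370 on the Tip60 RNAi arrays, against 5551, 4935, 4939 and 5146 on the eGFP arrays (−1.19). CG3397, an aldo-keto reductase, averaged 170 ± 38.8 (SD, n = 6) after Tip60 RNAi and 353 ± 46.5 (n = 4) after eGFP RNAi (−1.08).

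The rest of the group were smaller falls. The heme peroxidase family gene CG42331 had a log2 difference of −0.83, and CG7737, which the table lists as the polyamine oxidase PAOX, one of −0.73. For CG4036, of the AlkB dioxygenases that remove methyl groups, it was −0.68. CG5235, a copper-dependent monooxygenase, and the dehydrogenase CG31549 both stood at −0.61.

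Lipid enzymes and lipid-binding proteins had eGFP means between 1515 and 12361 in 7 genes and a median log2 difference of −0.80. CG10527, placed here only by its synonym FAMeT (farnesoic acid methyltransferase), averaged 5839 ± 646 (SD, n = 6) after Tip60 RNAi and 10901 ± 539 (n = 4) after eGFP RNAi (−0.91). Whether its protein has that activity was not tested. CG3961, a long-chain acyl-CoA synthetase that activates fatty acids, averaged 5538 ± 586 after Tip60 RNAi and 10290 ± 992 after eGFP RNAi (−0.90). CG8306, a fatty acyl-CoA reductase, varied little among controls. It gave 752, 837, 585, 901, 743 and 898 on the Tip60 RNAi arrays, against 1504, 1530, 1518 and 1508 on the eGFP arrays (−0.96).

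CG2201, of the choline kinase family that starts phosphatidylcholine synthesis, had a log2 difference of −0.80. CG11151, with a sterol carrier domain, was at 7064 ± 1069 (SD, n = 6) after Tip60 RNAi and 11303 ± 1346 (n = 4) after eGFP RNAi (−0.68). CG6180 and CG7054 both belong to the phosphatidylethanolamine-binding proteins. CG6180 was the brightest member, at 8050 ± 260 after Tip60 RNAi and 12361 ± 1045 after eGFP RNAi (−0.62). CG7054 stood at 3005 ± 186 after Tip60 RNAi and 4566 ± 240 after eGFP RNAi (−0.60), almost on the limit of the rule.

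Among enzymes of sugar, amino acid and nucleotide metabolism, 7 genes had a median log2 difference of −0.71. CG11899, the phosphoserine aminotransferase of serine synthesis, had the largest fall. Its signal was 371, 337, 353, 300.3, 335 and 246 on the Tip60 RNAi arrays, against 902, 825, 821 and 773 on the eGFP arrays (−1.37). CG8891, an inosine triphosphate pyrophosphatase that clears damaged nucleotides, was the most even member. It gave between 3303 and 4030 (median 3689) after Tip60 RNAi, against 6764, 7021, 6829 and 6853 after eGFP RNAi (−0.91, SD within groups 0.05 on the log2 scale). The remaining log2 differences were −0.75 for the glycosyltransferase CG3038, −0.71 for the phosphatase CG5577, −0.69 for the rhodanese-type sulfurtransferase CG12279, and −0.62 for both the glycogen debranching enzyme CG9485 and CG2246, of the phosphoribosyl pyrophosphate synthetases.

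Proteins that act on RNA or on RNA:DNA hybrids included CG12288, listed as the nucleolar RNA-binding protein RBM34. Its signal was 782, 834, 710.4, 1065, 791 and 875 on the Tip60 RNAi arrays, against 2308, 1946, 1955 and 2166 on the eGFP arrays (log2 difference −1.32). CG9107, listed as the ribosomal RNA processing factor Rrp7, stood at −0.66, and CG13690, the large subunit of ribonuclease H2, at −0.63. Of mitochondrial proteins, the DnaJ chaperone CG5504, also known as l(2)tid, was at −0.81 and the HIG1 domain protein CG11825 at −0.66. The only transporter named here, CG13795 of the sodium-dependent SLC6 family, averaged 2662 ± 162 (SD, n = 6) after Tip60 RNAi and 4697 ± 140 (n = 4) after eGFP RNAi (−0.82).

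Ecdysteroid kinase-like genes form a fly family related to a silkworm enzyme that inactivates ecdysteroid moulting hormones by phosphorylation; members in flies have also been linked to detoxification. They were found here by their family synonyms in the RefSeq table and singled out after the values were seen. CG31370 gave 728 and 751 with dsRNA 1321-1618, 605 and 755 with dsRNA 190-807, and 852 and 972 with dsRNA 603-1116, against 1510, 1378, 1558 and 1901 on the eGFP arrays (log2 difference −1.03). CG31974 lay between 259 and 379 (median 293) after Tip60 RNAi, against 492, 519, 536 and 568 after eGFP RNAi (−0.82). In both genes all Tip60 RNAi arrays are lower.

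CG31436 lay between 240.5 and 357 (median 284) after Tip60 RNAi, against 546, 412, 473 and 437 after eGFP RNAi (−0.69). CG31098 lay between 853 and 1000 (median 898) after Tip60 RNAi, against 1427, 1420, 1397 and 1272 after eGFP RNAi (−0.61). CG31436 had its highest Tip60 RNAi arrays, 309 and 357, with dsRNA 1321-1618.

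The table lists 51 genes of this family with such a synonym, and 46 of them, with 47 probe sets, were on the array. Most were dim: 12 probe sets of 11 genes had an eGFP signal of at least 200, and 4 of these 12 (33.3%) fell by the rule, beside the 3.41% of all such probe sets. The rule counted 1 rise, CG32195, with 593 ± 75.7 (SD, n = 6) after Tip60 RNAi and 376 ± 43.8 (n = 4) after eGFP RNAi (0.66). The other 7 probe sets of the 12 ranged between −0.31 (CHKov2) and 0.14 (CHKov1, whose other probe set gave −0.10). Of 25 family probe sets bright enough for the limma fit, 5 were called lower (the 4 members and CHKov2, adjusted p = 0.0295) and 4 higher, where 16.7% and 17.8% of all probe sets were. These counts hold the 4 members that the contrast chose, and both are near the share on the whole array. The 12 brighter probe sets had a median log2 difference of −0.12, and without the 4 members the median was −0.08.

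**Figure D4:**
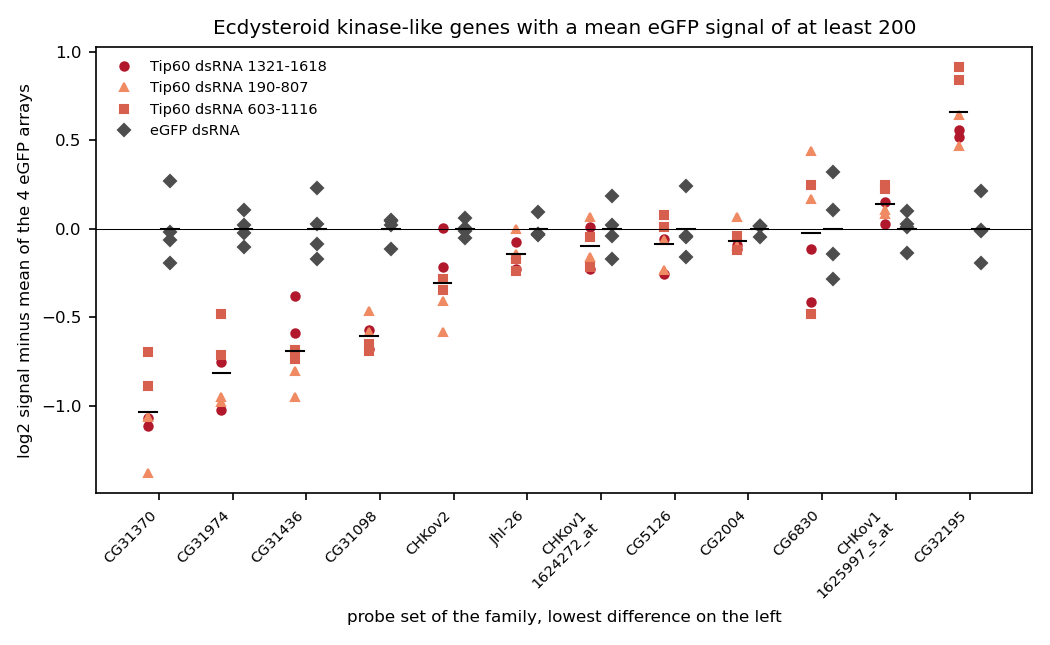
Log2 signal minus the eGFP mean (y) for 12 probe sets of 11 ecdysteroid kinase-like genes, on the Tip60 RNAi arrays (left of each pair) and the eGFP arrays (right); bars are means. The members CG31370, CG31974, CG31436 and CG31098 lie from −1.03 to −0.61, and CG32195 is higher at 0.66.

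Some members lie close together in the genome. Only the pair CG31370 and CG31436, both ecdysteroid kinase-like, had no other protein-coding gene between them in the RefSeq table. The table gives both the same older symbol, CG13660, and whether a probe set binds transcripts of the other gene was not tested. The dehydrogenases CG31549 and CG31546 are separated by CG12171 alone, which stood at 2705 after Tip60 RNAi and 2996 after eGFP RNAi (log2 difference −0.15), while the genes beside it were at −0.61 and −1.41. CG11151 and CG32625 (−0.71) enclose Pdcd4, which was at 2782 after Tip60 RNAi and 2130 after eGFP RNAi (0.37). CG13690 and CG13692 (−0.71) have 2 genes between them, the ribosomal protein gene RpLP1 at 0.21 and CG11885 at −0.50. CG9752 (−0.79) and CG9485 likewise enclose Arms (0.15) and Panx (−0.18).

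Of 80 neighbouring genes that are not members and had an eGFP signal of at least 200, 1 fell by the rule (1.25%), beside 209 of 5994 genes on the whole array (3.49%). Members were taken out of the 80 neighbours but remain among the 5994 genes. The share of neighbours that fell is therefore lower by construction, and nothing is read from the difference. The neighbour that fell was BBS8, at 156 after Tip60 RNAi and 246 after eGFP RNAi (−0.71). By the mirrored rule 3 of the 80 neighbours rose, beside 293 of the 5994 genes. They were CG42846 (1.12), IP3K1 (0.73) and Mct1 (0.62). The median neighbour was at 0.03 and the median of all 5994 at −0.04.

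The rule did not choose members by differences among the 3 dsRNAs. It did ask that all 6 arrays lie below the eGFP arrays, so a gene that 1 dsRNA left unchanged could not enter, and the values and counts by dsRNA below describe a set chosen in that way. The median member was lower by 0.76 with dsRNA 1321-1618, by 0.74 with dsRNA 190-807 and by 0.77 with dsRNA 603-1116 (medians of gene means over 2 arrays, log2, relative to eGFP). Each of the dsRNAs gave the deepest fall in some genes: 25 with dsRNA 1321-1618, 19 with dsRNA 190-807 and 33 with dsRNA 603-1116. Taken singly, 68, 61 and 69 genes were lower by at least 0.6 with these dsRNAs in the same order.

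When the 3 dsRNAs were compared jointly by an F-test (limma, Benjamini-Hochberg over 11261 probe sets) 0 of the 77 members were called, and the smallest adjusted p was 0.309. On the whole array 4 of 11261 probe sets were called (0.0355%). At an unadjusted p under 0.05 there were 10 members of the 77, beside 9.1% of all probe sets. For dsRNA 1321-1618 minus the mean of the other two, 0 members were called (smallest adjusted p 0.372), beside 4 probe sets overall (0.0355%). At an unadjusted p under 0.05 there were 7 members (9.09%), beside 911 of all probe sets (8.09%). For dsRNA 190-807 minus dsRNA 603-1116, 0 members were called by limma (smallest adjusted p 0.295), beside 0 overall (0%). At an unadjusted p under 0.05 there were 11 members (14.3%), beside 950 of all probe sets (8.44%). With 2 arrays per dsRNA the median standard error of these differences was 0.12 and 0.14, so small differences in single genes were not detectable.

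The 3 widest differences of each contrast are given as values. CG31546 fell least with dsRNA 1321-1618, and its level there minus the mean level with the other dsRNAs was 0.75 on the log2 scale (SE 0.24, limma adjusted p = 0.416). CG8326 had signals of 456 and 449 with dsRNA 1321-1618, 631 and 528 with dsRNA 190-807, and 366 and 357 with dsRNA 603-1116, against 715, 668, 638 and 788 on the eGFP arrays. The highest Tip60 RNAi array almost reached the lowest eGFP array, and both arrays of dsRNA 190-807 lay above the other 4 Tip60 RNAi arrays. Its difference between dsRNA 190-807 and dsRNA 603-1116 was 0.68 (SE 0.16, limma adjusted p = 0.295). CG12910 was lower with dsRNA 190-807 than with dsRNA 603-1116 by a log2 difference of −0.83 (SE 0.39, limma adjusted p = 0.591), and its level with dsRNA 1321-1618 minus the mean of the others was −0.51 (SE 0.34, limma adjusted p = 0.771). CG3397 had a difference of −0.60 between dsRNA 190-807 and dsRNA 603-1116 (SE 0.27, limma adjusted p = 0.577). For CG11151 dsRNA 1321-1618 differed from the others by 0.36 (SE 0.11, limma adjusted p = 0.372). A p that misses the threshold does not show that the dsRNAs act alike on these genes.

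**Figure D5:**
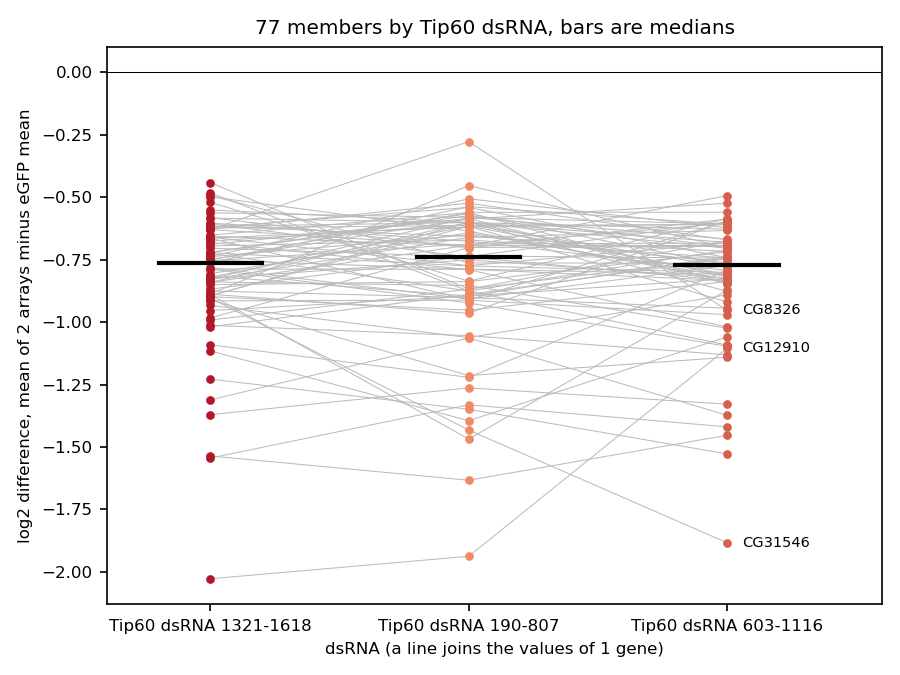
Log2 difference from the eGFP mean (y) of the 77 members for each Tip60 dsRNA (x, mean of 2 arrays), with lines joining the values of a gene and bars for medians. Medians are −0.76, −0.74 and −0.77, and the values spread most between dsRNAs for CG31546, CG12910 and CG8326.

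Further probe sets on the array read 6 of the 77 genes. CG10344 was at 177 ± 37.9 (SD, n = 6) after Tip60 RNAi and 313 ± 47.3 (n = 4) after eGFP RNAi by the member probe set (−0.84). By its other probe set it was at 379 ± 47.3 after Tip60 RNAi and 524 ± 25.9 after eGFP RNAi (−0.47), again with no overlap between groups. CG9107 gave −0.62 by a dimmer probe set (157 after Tip60 RNAi, 211 after eGFP RNAi), whose groups overlapped. For CG42565 the other probe sets lay near the background and pointed the other way. The one assigned to this gene alone was at 84.5 ± 13.3 after Tip60 RNAi and 46.5 ± 17.6 after eGFP RNAi (0.92), and the one shared with CG13511 gave 0.05. Other probe sets of CG15820, CG12075 and CG42331 were dim, with mean signals between 41.5 and 110.5 in the groups, and their arrays overlapped between groups. They gave −1.87 for CG15820, −0.20 for CG12075 and −0.08 for CG42331. By the member probe sets these genes were at −0.85, −0.65 and −0.83.

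The limits of the rule cut through a continuous range. CG7054 and CG14434 were just inside the limit on the difference (both −0.604), and CG31650 (−0.599872) and CG9922 (−0.595) just outside it. On the signal, CG32813 (eGFP mean 234) and CG42331 (295) were the dimmest members. CG32436 (186) and CG33342 (34.6) met the other criteria but were too dim. On separation, CG8326 and CG17996 entered with gaps of 0.01 and 0.04 on the log2 scale between the highest Tip60 RNAi and the lowest eGFP array, and 6 genes failed by this criterion alone. Nearest to entering among these were CG5162 and CG17786, each with a gap of −0.02, that is, a small overlap.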

How the data were processed

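RNA of SL2 cells was measured on 10 Affymetrix arrays. The authors deposited 1 intensity per probe set and array, made with GCOS 1.4 per the submitters' processing notes; for the background correction and probe summary, nothing is given in the sources used here. The 10 columns were matched to arrays by their names, and 0 columns were left unused. Signals were taken to log2 with no added constant. Gene symbols came from the platform annotation, and synonyms and gene order from the RefSeq table. limma 3.58.1 in R 4.3.3 was fitted with a mean for each dsRNA, an intensity trend and Benjamini-Hochberg adjustment, over 11261 of 18769 fly probe sets (mean log2 signal at or above the 40th percentile, a signal of 34.5); it was tested on simulated data. The 183 control probe sets were left out. The number of arrays limits the precision.

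The members and gene lists were chosen with earlier results of these data known, and roles and the ecdysteroid kinase-like family after the values were seen. Genes named are the 12 largest falls, the 8 brightest members, any called among dsRNAs, the 2 most and 2 least even, genes whose probe sets disagree, adjacent members, those 2 inside and outside each limit, and those with a role. Other normalizations, filters, limits, variance models, left-out arrays and a replicate block were tried. Promoter motifs and protein comparisons were not run, since no sequences were used here.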

Additional observations from a re-analysis of the deposited data

Results flagged for a closer look

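In 6 members 1 array lay far from the others of its group, by the ratio of its gap to the range of the group. On replicate 1 of dsRNA 190-807, which also stood apart over all probe sets, CG12075 was low, at 437.4 against 602 to 660.6 on the other Tip60 RNAi arrays. The other 5 concern eGFP arrays. CG16888 was low on replicate 2-2, at 829.1 against 1021 to 1043. CG7054 was high on the same array, at 4923 against 4413 to 4475. On replicate 2-1 CG32278 was high, at 3522 against 3200 to 3229, and so was CG7737, at 998.2 against 821 to 834.7. CG12107 was low on replicate 3-1, at 3064 against 3521 to 3584. Chance alone flags about 1 in 20 of the groups examined in this way.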

How the results depend on the processing

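The number of members, 77, was 794 with arrays centred on their median, 698 when scaled to the hybridization spike-ins and 1359 when scaled to the poly-A spike-ins, each time including all 77. These 3 scalings lower the Tip60 arrays relative to the eGFP arrays on average, so members could hardly drop out and nothing is read from this. Quantile normalization took 97 and cyclic loess 92, and each kept 71 of the 77. It was 123 at a limit of −0.5 and 12 at −1. Leaving out single arrays gave 74 to 83, of which 71 to 75 were among the 77. The median log2 difference of the 77, −0.73, was −0.78 with quantile and −0.78 with cyclic loess normalization. It was −1.23 with median centring, −1.27 and −1.48 with the hybridization and poly-A spike-ins, and −0.76 to −0.72 without single arrays. Median centring and the spike-in scalings lower the difference of every probe set by a constant. For the hybridization and poly-A spike-ins it is 0.55 and 0.75. The cause of the other changes was not tested. With median centring, hybridization and poly-A spike-ins the median of all fly probe sets was −0.29, −0.33 and −0.54. With the replicate block the median was −0.75 and the rule took 75 probe sets, 66 of them members. Correlations of the deviations of same-numbered arrays of different groups were −0.03 to 0.03, and the main fit used no pairing. In groups of 2 arrays the deviations mirror each other, so few of these correlations are separate values. Arrays within a group were not compared in this way. What the replicate numbers mean is not stated, so a shared origin of eGFP arrays with the same first number was not tested. In the limma tests among the dsRNAs the count of members called stayed 0 under every alternative run, with smallest adjusted p of 0.0812 (any difference, poly-A spike-ins) and 0.0889 (dsRNA 190-807 minus dsRNA 603-1116, without replicate 3 of dsRNA 190-807), and 1 to 24 members at an unadjusted p under 0.05. Promoter motif shares were not run.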
